A study of Homo sapiens with 9 samples.

Results

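This report describes the genes for which cells kept in oxaliplatin and cells kept in sorafenib lay together on one side of untreated cells. The cells are labelled HCT-15, an established human line from a colorectal adenocarcinoma, with a wild-type genotype, and their messenger RNA was sequenced. There were 3 libraries each of untreated cells, of cells kept in oxaliplatin and of cells kept in sorafenib. The mean of both drug groups was contrasted with the untreated group, and a gene was taken as a member when all 6 drug libraries lay above, or all 6 below, all 3 untreated libraries. Unless stated otherwise, levels are CPM, the counts of a gene scaled to a common library size with a correction for composition. Of 60683 genes in the files, 16159 had enough counts to be compared, and 2850 of them (17.6%) were members. In the drug libraries 1478 of these were higher (9.15% of the genes compared) and 1372 were lower (8.49%).

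The oxaliplatin cells spent 7 days in 0.5 µM of the drug. From day 10 to day 30 the dose was stepped up through 1 and 2 µM to 4 µM, at which they were then held. Sorafenib cells were made by a like scheme, and their doses are not in the labels. The untreated cells are labelled as having no treatment, and neither a vehicle nor their time in culture is named. All 9 libraries share the parent line and the growth medium, and nothing in the labels says whether a drug-adapted population is 1 clone or whether the 3 libraries of a group came from separate cultures. The p-values below rest on the spread among libraries alone, and that spread may be technical.

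Oxaliplatin is a platinum drug whose DNA adducts block replication and transcription. Sorafenib blocks the RAF kinases and growth factor receptors such as those of VEGF and PDGF. Both slow cell division: damaged DNA engages the p53 pathway and the cyclin-dependent kinase inhibitor p21, while loss of growth signals keeps the retinoblastoma protein bound to E2F factors, which otherwise switch on the genes of DNA replication. Cells that survive long exposure are known to change adhesion receptors, drug efflux pumps and energy metabolism. The series concerns stress of the endoplasmic reticulum (ER), senescence and an inositol polyphosphate in chemotherapy.

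The total counts were between 15797076 and 20936536 per library, and 3 counts, taken as the floor of detection, correspond to 0.143 to 0.190 CPM. This floor covers counting error only. Marker levels and sums in this paragraph are scaled by library size only, without the correction for composition. The markers of the label were mostly missing. Of 20 colorectal epithelial markers, 18 had a median under 1 CPM, and 11 of them, CDX1, CDX2, CDH1, KRT20, CEACAM5 and HNF4A included, were at 0 in all 9 libraries. KRT8 and KRT18, keratins of many simple epithelia, were the 2 exceptions. Of 20 renal epithelial markers, 8 had a median of at least 10 CPM, among them PAX8 at 344, HAVCR1 at 174 and AQP1 at 154 CPM. Another 7 had a median under 1 CPM, namely CA9, NDUFA4L2, SLC12A1, VCAM1, EMX2, SLC22A6 and UMOD. The last 3 were at 0 in all libraries. The summed renal list was 633 to 948 CPM in untreated, 984 to 1089 CPM in oxaliplatin and 924 to 1148 CPM in sorafenib libraries. The colorectal list, nearly all of it keratins, summed to 1127 to 1480, 739 to 893 and 842 to 1092 CPM. Immune markers summed to 25.8 to 46.6, 22.4 to 62.0 and 18.3 to 49.8 CPM in the same order. Fibroblast and endothelial markers summed to 11.5 to 46.1 CPM in untreated, 17.4 to 25.8 CPM in oxaliplatin and 4.09 to 4.92 CPM in sorafenib libraries, and the 2 with enough counts to be compared were both called lower in the mean contrast. In each of these lists 10 of 12 markers had a median under 1 CPM and 5 were at 0 in all libraries. The part of these markers in the results was not tested. The levels go against the label, and the sample titles carry a number whose meaning is not given, so the identity of the line is uncertain and the cells are called cells labelled HCT-15 here.

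The library untreated 1 stood apart from the others of its group, and sorafenib 1 did so on the first principal component. On that component of log2 CPM, which held 36.6% of the variance, untreated 1 lay at -24.2 and sorafenib 1 at -23.1. The other untreated libraries lay at -59.5 and -45.6 and the other sorafenib libraries at 10.3 and 4.25. On the second component (17.8%) sorafenib 1, at 31.8, lay near the other sorafenib libraries at 38.0 and 38.8. Untreated 1 was at 1.21 there, against -29.1 and -24.8 for the other untreated libraries. Since 1 library can break the separation of the groups, untreated 1 and sorafenib 1 set how many genes were members. Without untreated 1 there were 5713 members, and without sorafenib 1 there were 4973. Leaving out any other library gave 3004 to 3681. Of all genes compared, 17.3% were then higher and 17% lower members without untreated 1, and 15.4% and 14.6% without sorafenib 1. Counts of a list without either library are to be read against these shares, and counts after the correction for GC content and length (below) against 6.49% and 11.1%. Asking in addition for a gap of at least 1.2-fold between the nearest drug and untreated libraries left 561 members.

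**Figure D1:**
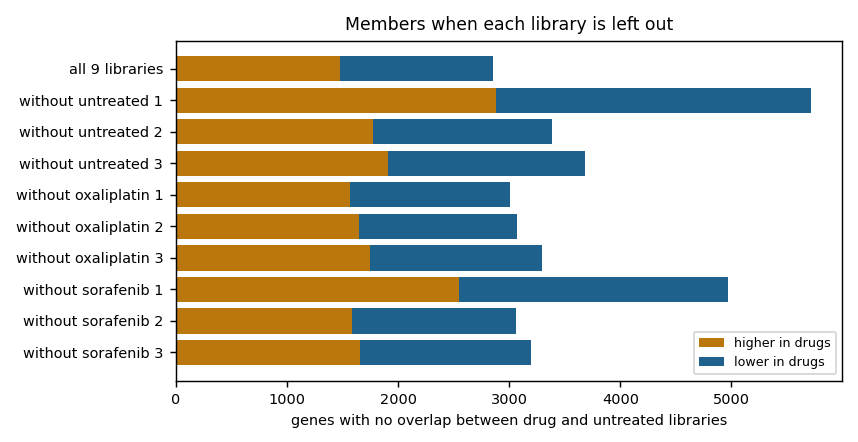
Bars give the number of genes whose drug libraries all lay on one side of the untreated libraries, split by direction, with all 9 libraries and with each library left out in turn. The count was 2850 with all libraries, and the 2 longest bars are those without untreated 1 (5713) and without sorafenib 1 (4973).

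In the test of the mean of both drugs against untreated (edgeR's quasi-likelihood test, adjusted p under 0.05), 3868 of 16159 genes were called (23.9%). Of these, 1941 were higher in the drugs (12%) and 1927 lower (11.9%). Among the higher members 1196 of 1478 were called and among the lower members 1052 of 1372, but membership rests on the same contrast, so these shares describe the members and support nothing. The split by direction depended on scaling: 50.2% of the called genes were higher as reported, 63.6% with scaling by library size only and 32.9% after correction for GC content and transcript length. By library size only 2375 genes were called higher and 1361 lower, and after the correction 1308 and 2664. Called counts of a list in these settings are to be read against these numbers. The number called was 726 without untreated 2, 1138 without untreated 3, 2381 without oxaliplatin 1, 2326 without sorafenib 2 and 2348 without sorafenib 3.

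The median log2 fold change of the higher members was 0.80 in oxaliplatin and 0.64 in sorafenib against untreated, and 0.72 for the mean of both. For the lower members these medians were -0.61, -0.43 and -0.53. Most shifts were therefore smaller than 2-fold. A mean change of at least 2-fold was seen in 446 higher and 127 lower members, and at least 2-fold in each drug in 285 and 61. The comparisons of each drug with untreated share the 3 untreated libraries, so the values of the drugs are given side by side and no agreement between them is read as a result.

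BAMBI, a decoy receptor that dampens TGF-beta signalling, was among the lower members with the largest shifts in both drugs and lies at chr10:28677510-28682932 on the plus strand (GRCh38). It was at 20.8, 32.9 and 28.5 CPM in untreated cells, 10.4, 8.79 and 9.61 CPM in oxaliplatin and 10.9, 9.08 and 9.81 CPM in sorafenib, a log2 fold change of -1.49 ± 0.15 (SE, n = 9 libraries). The drug groups overlapped each other and stayed clear of the untreated libraries. No p is given for the mean contrast of the members ranked here, since the same contrast chose them. ANKRD1, a target of the YAP coactivator, was at 5.10, 12.5 and 13.0 CPM in untreated, 1.88, 2.12 and 1.70 CPM in oxaliplatin and 4.29, 2.44 and 2.20 CPM in sorafenib. Here untreated 1 and sorafenib 1 approached each other, and the log2 fold change was -2.10 ± 0.31. Other leading lower members were CRABP2 (-1.19 ± 0.16), which carries retinoic acid, GPER1 (-1.18 ± 0.20), a membrane oestrogen receptor, and MISP (-1.08 ± 0.19), which helps to position the mitotic spindle.

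GMPPB (-1.28 ± 0.27), an enzyme that makes GDP-mannose, and ZNF33A (-1.41 ± 0.31), a zinc finger gene, varied more between drug libraries. GMPPB ranged from 9.76 to 12 CPM in oxaliplatin but from 6.97 to 20.5 CPM in sorafenib. CGB8, a chorionic gonadotropin beta gene, had a log2 fold change of -2.05 ± 0.37, with untreated 1 at 49.0 CPM and the other untreated libraries at 185 and 158 CPM. It has near-identical neighbouring copies among which reads may be split, and TAX1BP3 (-1.44 ± 0.21) shares its exons with a readthrough gene, so the values of both are uncertain.

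Among higher members PHACTR2, which binds actin and protein phosphatase 1 and lies on chromosome 6, combined a large shift with little spread. It was at 3.46, 2.93 and 4.93 CPM in untreated cells, 19.6, 18.2 and 19.5 CPM in oxaliplatin and 14.9, 14.6 and 16.1 CPM in sorafenib. The lowest drug library was thus well above the highest untreated one, and the log2 fold change was 2.17 ± 0.18 (SE), a level 4.51-fold higher. ITPR1, the inositol trisphosphate receptor that releases calcium from the ER, was at 3.29, 2.54 and 1.86 CPM in untreated, 12.3, 9.33 and 8.63 CPM in oxaliplatin and 7.82, 11.4 and 9.97 CPM in sorafenib (1.95 ± 0.23). The long non-coding RNA LUCAT1 was at 8.80, 5.42 and 6.79 CPM, then 24.9, 23.8 and 23.2 CPM, then 22.3, 25.4 and 29 CPM in the same order of groups (1.82 ± 0.17). In both of these genes the drug groups overlapped each other and stood clear of the untreated group.

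IDS, the lysosomal enzyme that removes sulphate from heparan and dermatan sulphate, was at 14.8, 11.1 and 11.2 CPM in untreated, 49.0, 69.1 and 56.7 CPM in oxaliplatin and 20.5, 46.3 and 72.2 CPM in sorafenib (2.07 ± 0.37). The overlapping transcript AC244197.3 was at 0.293 to 0.387 CPM in untreated cells and anywhere from 0.869 to 38.5 CPM in the drugs, so its fitted shift of 5.35 ± 1.53 has a wide error. The 2 overlap on the same strand, and their reads cannot be told apart with certainty.

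Several genes with very large shifts were uneven within a drug group. RAB43, a small GTPase of vesicle traffic, was at 1.70 to 2.11 CPM in untreated cells, at 3.76, 4.29 and 37.9 CPM in oxaliplatin and at 22.7, 22.6 and 27.4 CPM in sorafenib, so that oxaliplatin 3 resembled sorafenib and the other oxaliplatin libraries lay near the untreated ones. It overlaps a readthrough gene. GRPEL2, a cofactor of mitochondrial protein import, was at 5.92 to 9.56 CPM in untreated, at 61.6, 17.8 and 54.0 CPM in oxaliplatin and at 64.8, 71.2 and 18.4 CPM in sorafenib. GPRIN3 ranged from 0.212 to 0.821 CPM in untreated, 2.92 to 10.9 CPM in oxaliplatin and 2.61 to 17.8 CPM in sorafenib. ERC1 (2.04 ± 0.57), UVSSA (2.03 ± 0.60) and KLHL11 (2.05 ± 0.62) had errors of similar size. For KLHL11 the spread lay in the untreated group, where untreated 3 was at 0.265 CPM and the others at 3.46 and 4.09 CPM. All of these genes met the rule, since it asks only for order and not for even levels.

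**Figure D2:**
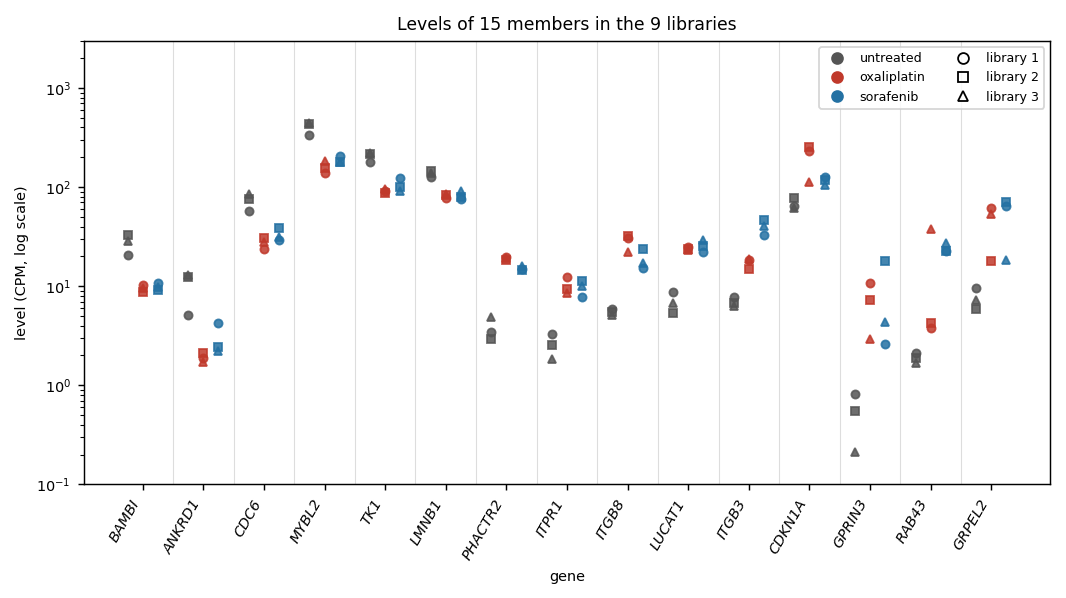
Points give the level of 15 members in each of the 9 libraries, in CPM on a log axis, with colours for the groups and shapes for library numbers 1 to 3. From BAMBI to LMNB1 all drug libraries lie below the untreated ones and from PHACTR2 on all lie above. The 3 genes at the right, GPRIN3, RAB43 and GRPEL2, are spread widely within the drug groups.

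Genes of DNA replication made up the list with the largest share of lower members. These genes license origins, unwind and copy DNA and supply nucleotides, and most are known targets of E2F. Of 47 compared, 33 were lower members and 0 were higher (background 8.49% lower and 9.15% higher), and 35 were called lower and 0 higher in the mean contrast (background 11.9% and 12%). The median log2 fold change of the list was -0.54, with -0.72 in oxaliplatin and -0.40 in sorafenib, beside 0.00 for all genes compared. The count of lower members was 35 after correction for GC content and length, 30 with scaling by library size only, 36 without untreated 1, 34 without sorafenib 1 and 17 with the 1.2-fold gap.

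CDC6, which loads the MCM helicase onto origins, was at 57.1, 75.5 and 85.8 CPM in untreated cells, 24.0, 30.7 and 28.1 CPM in oxaliplatin and 29.5, 38.9 and 31.7 CPM in sorafenib (-1.26 ± 0.14, SE). TK1, the thymidine kinase of S phase, was at 181, 218 and 221 CPM, then 91.1, 86.2 and 95.7 CPM, then 124, 101 and 91.8 CPM (-1.08 ± 0.11). GINS2, a subunit of the replicative helicase, was at 35.4, 45.5 and 46.7 CPM, then 14.1, 14.9 and 16.3 CPM, then 26.5, 21.5 and 22.5 CPM. The drug groups of GINS2 did not overlap each other, and oxaliplatin was the lower one, with a difference of -0.64 ± 0.15 on the log2 scale (adjusted p = 0.0241, edgeR). That call was lost when oxaliplatin 1 or 2 or sorafenib 1 or 3 was left out. Helicase and polymerase genes among the members included MCM3, MCM5, MCM6, MCM7, POLA1, POLA2, POLD1 and POLE2. MCM2, MCM4, RRM2 and POLE were no members.

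Genes of the G2 phase and mitosis had 23 lower members and 0 higher of 50 compared, with 24 called lower and 0 higher and a median of -0.38. With the 1.2-fold gap 3 of the 50 (6.0%) were still lower members, beside 1.11% of all genes. MYBL2, a transcription factor of the late cell cycle, was at 338, 429 and 439 CPM in untreated cells, 140, 156 and 185 CPM in oxaliplatin and 206, 178 and 177 CPM in sorafenib (-1.22 ± 0.12). CDC20, an activator of the anaphase-promoting complex, was at 251, 341 and 314 CPM, then 158, 170 and 203 CPM, then 206, 175 and 171 CPM (-0.74 ± 0.12). TACC3, a spindle protein, had a log2 fold change of -0.82 ± 0.11. MKI67, the gene of the Ki-67 proliferation marker, was no member: it was at 203, 102 and 206 CPM in untreated, 251, 87.4 and 204 CPM in oxaliplatin and 187, 86.1 and 96.0 CPM in sorafenib. Its groups overlapped, and its mean contrast was -0.19 ± 0.40 with an adjusted p of 0.755.

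The promoters of these lists were searched because many of their genes are known to share short regulatory sequences. RefSeq windows from 250 bases before to 50 after the start of transcription (GRCh38.p14) were matched to 10800 of the 16159 genes. An E2F-type motif, TTTGGCGC, TTTCCCGC, TTTGCCGC or TTTCGCGC on either strand, was found in a window of 15 of 29 lower replication members (51.7%), 6 of 11 other replication genes (54.5%) and 6.64% of all genes. A CHR motif, TTTGAA on either strand, was found in 14 of 20 lower mitosis members (70.0%), 14 of 21 other mitosis genes (66.7%) and 13.5% of all. The motifs therefore went with the lists, and were as frequent in list genes that were not members. A CCAAT box, which often lies beside both, was in 75.0% of the lower mitosis members, 81.0% of the other mitosis genes and 43.1% of all.

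Stretches around a match nearest the start of transcription are shown for members of each list, 5′ to 3′ on the strand of the gene, with the motif or its reverse complement in capitals and no annotated exon within them. The capitals in MCM6 hold 2 overlapping matches.
MCM6, chr2:135876492-135876559, minus strand: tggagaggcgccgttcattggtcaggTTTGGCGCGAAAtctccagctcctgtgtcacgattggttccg
PCNA, chr20:5126644-5126711, minus strand: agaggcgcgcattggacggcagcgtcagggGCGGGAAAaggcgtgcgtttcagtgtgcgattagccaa
CDC20, chr1:43358886-43358951, plus strand: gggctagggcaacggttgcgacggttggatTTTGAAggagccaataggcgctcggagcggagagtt
ESPL1, chr12:53268238-53268298, plus strand: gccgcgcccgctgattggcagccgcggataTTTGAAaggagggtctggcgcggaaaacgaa

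The match lay 78 bases before the start in MCM6, 51 in PCNA, 59 in CDC20 and 25 in ESPL1. MCM6, a subunit of the helicase, and PCNA, the sliding clamp of DNA polymerases, had log2 fold changes of -0.80 and -0.79. ESPL1, the separase that cuts cohesin, had -0.23. A match is a description of the letters and not evidence of binding.

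Over all members the E2F type was in 9.32% of the lower and 5.92% of the higher members, beside 6.64% of all genes, and the CHR in 13.6% and 15.3%, beside 13.5%. The AP-1 motif TGANTCA was in 8.02% of higher and 4.86% of lower members beside 7.09% of all genes, and the cyclic AMP element TGACGTCA was in 2.91%, 5.35% and 3.74% in the same order. The ATF4-type motifs TGATGCAA and TGATGAAA were in 2.01%, 0.892% and 1.44%. For the interferon-stimulated response element (ISRE) the shares were 3.91%, 2.87% and 3.72%, and for the ETS motif CCGGAAG they were 20.1%, 25.2% and 22.4%. The TATA box TATAAA was in 10.8%, 6.84% and 8.36%, the TEAD motif GGAATG in 15.2%, 11.7% and 14.8%, the E box CACGTG in 10.6%, 11.6% and 12.6% and the GC box GGGCGG in 76.1%, 76.8% and 76.2%. All were searched on both strands.

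Arrest genes did not move as 1 group. CDKN1A, the gene of p21, rose: it was at 63.9, 78.4 and 60.8 CPM in untreated cells, 233, 251 and 113 CPM in oxaliplatin and 127, 119 and 106 CPM in sorafenib. Oxaliplatin 1 and 2 were high, while oxaliplatin 3 lay among the sorafenib libraries. The log2 fold change was 1.17 ± 0.24 (adjusted p = 0.0118, edgeR), and the adjusted p was 0.0551 without untreated 3. Here and for LMNB1, CDKN2A and ATF4 below, which are members, the p comes from the contrast that the rule uses and is a description. CDKN2A, the gene of p16 and ARF, was low throughout, at 1.05 to 1.38 CPM in untreated and 1.60 to 2.95 CPM in the drugs, and the contrast of 0.72 ± 0.25 did not pass the test (adjusted p = 0.0637). CDKN2B, the gene of p15, was a lower member, at 21.5, 28.4 and 24.9 CPM in untreated and 16.8 to 20.4 CPM in the drugs. RB1, the retinoblastoma gene, was a higher member, at 34.3 to 51.8 CPM in untreated and 60.3 to 105 CPM in the drugs (0.77 ± 0.18, and 0.51 after correction for GC content and length). Of 20 genes on the list of kinase inhibitors and arrest genes, 5 were higher and 4 lower members.

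LMNB1, the gene of lamin B1, whose loss is a known mark of senescent cells, fell in both drugs. It was at 127, 145 and 139 CPM in untreated cells, 77.9, 84.0 and 84.7 CPM in oxaliplatin and 76.0, 80.2 and 91.0 CPM in sorafenib. The drug groups overlapped fully and no drug library came near the untreated ones. The log2 fold change was -0.74 ± 0.09 (adjusted p = 0.00306, edgeR). GLB1, which encodes the beta-galactosidase used as a senescence stain, was at 60.7 to 86.0 CPM in untreated and 69.3 to 95.9 CPM in the drugs, with overlapping groups (0.20 ± 0.14, adjusted p = 0.310). Of 24 secreted factors of senescent cells that were compared, 1 was a higher and 2 were lower members, near the background. STC1, a secreted glycoprotein hormone, was the higher one (1.32 ± 0.29) at no more than 2.17 CPM. CSF2 and TIMP2 were the lower ones, and TIMP2, an inhibitor of metalloproteases, was split within each drug: it was at 522 to 581 CPM in untreated, at 78.7, 99.2 and 454 CPM in oxaliplatin and at 105, 517 and 112 CPM in sorafenib.

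Of 31 p53 targets compared, 8 were higher members and 0 lower, and 10 were called higher and 3 lower, with a median of 0.19. After correction for GC content and length there were 7 higher and 1 lower members and the median was 0.10, and without either untreated 1 or sorafenib 1 there were 12 and 2. EDA2R, a death receptor of the TNF family, was at 12.7, 7.85 and 11.3 CPM in untreated cells, 27.4, 32.2 and 28.6 CPM in oxaliplatin and 20.5, 21.7 and 23.7 CPM in sorafenib (1.26 ± 0.16). The other higher members were CDKN1A, ZMAT3, BTG2, RRM2B, POLH, XPC and AKAP9. ZMAT3, an RNA-binding protein, was at 67.2, 54.8 and 8.27 CPM in untreated and 94.4 to 134 CPM in the drugs, and its shift of 1.44 ± 0.55 was 0.94 without untreated 3.

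**Figure D3:**
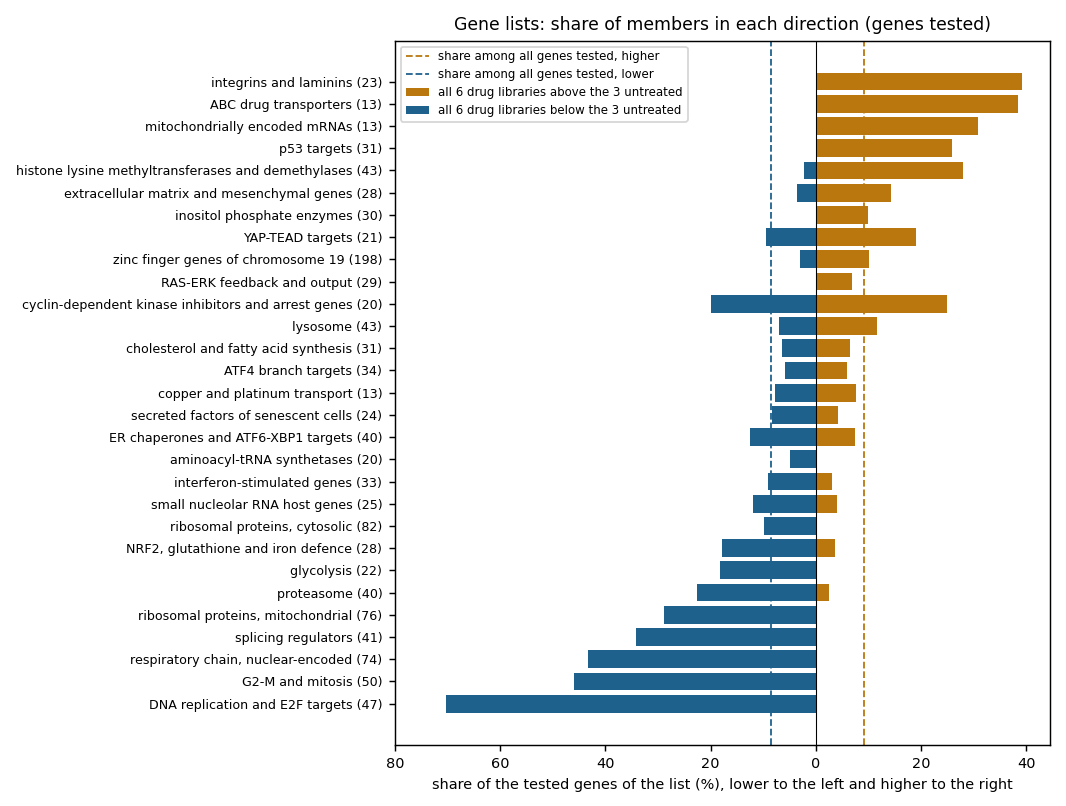
Bars give the share of the compared genes of each list that were lower members (left) or higher members (right), with the number compared in brackets, and dashed lines give the shares among all genes (8.49% lower, 9.15% higher). Replication, mitosis, respiratory chain and splicing genes reach farthest to the left, and integrins and laminins and ABC transporters farthest to the right.

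Nuclear genes of the respiratory chain, which encode subunits of complexes I to V of mitochondria, had 32 lower members and 0 higher of 74 compared. In the mean contrast 53 fell and 0 rose, and the median was -0.56, with -0.71 in oxaliplatin and -0.35 in sorafenib. ATP5ME, a subunit of ATP synthase, was at 42.6, 55.6 and 55.0 CPM in untreated cells, 21.1, 19.96 and 27.7 CPM in oxaliplatin and 36.0, 31.9 and 31.0 CPM in sorafenib (-0.89 ± 0.13). NDUFS6, of complex I, was at 74.4, 94.5 and 77.4 CPM, then 27.4, 26.6 and 54.5 CPM, then 71.8, 43.7 and 40.2 CPM (-0.92 ± 0.26), with sorafenib 1 just below the lowest untreated library. Many genes of this list were separated by little: 57 were lower members without sorafenib 1 and 51 without untreated 1, while 1 kept a 1.2-fold gap. These genes are short, with a median exonic length of 2539 bases beside 4302 for all genes compared, and after correction for length and GC content 37 were lower members.

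The 13 messenger RNAs encoded in mitochondria had 4 higher members and 0 lower. MT-CO1, of complex IV, was at 15242 to 19476 CPM in untreated and 20166 to 26948 CPM in the drugs. MT-ND4L was at 681 to 1244 CPM in untreated and 1343 to 2536 CPM in the drugs, and it overlaps MT-ND4, so reads of the 2 may be shared. In the mean contrast 2 of the 13 were called, both higher, where 12% of all genes were called higher. With scaling by library size only 5 of the 13 were called higher, and over all genes 2375 in place of 1941. Mitochondrial genes took 8.44% to 9.94% of the counts in untreated, 9.56% to 11.9% in oxaliplatin and 10.1% to 11.1% in sorafenib libraries.

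Mitochondrial ribosomal proteins had 22 lower members and 0 higher of 76, with 39 called lower and a median of -0.45. The lower members were 44 without untreated 1 and 39 without sorafenib 1. MRPL11 was at 82.7, 75.3 and 68.6 CPM in untreated cells, 32.4, 30.8 and 34.0 CPM in oxaliplatin and 58.8, 40.9 and 39.3 CPM in sorafenib (-0.96 ± 0.13). Cytosolic ribosomal proteins differed in this respect: 8 of 82 were lower members (9.76%, beside 8.49% of all genes), although 32 were called lower and the median was -0.40. Sorafenib 1 decided that count, since 51 of the 82 were lower members without it and 37 without untreated 1. RPS15, one of the 8, was at 205, 213 and 233 CPM in untreated, 120, 122 and 144 CPM in oxaliplatin and 181, 150 and 131 CPM in sorafenib (-0.62 ± 0.11).

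The proteasome, the protease that degrades ubiquitin-tagged proteins, had 9 lower members and 1 higher of 40, with 18 called lower and 0 higher. PSMB6, a catalytic subunit, was at 99.3, 129 and 88.1 CPM in untreated cells, 36.6, 41.4 and 61.7 CPM in oxaliplatin and 74.0, 57.4 and 54.4 CPM in sorafenib (-0.97 ± 0.18). Without untreated 1 there were 24 lower members and without sorafenib 1 there were 19. Of 22 glycolytic enzymes 4 were lower members and 0 higher. PGAM1, a phosphoglycerate mutase, was at 290, 310 and 312 CPM, then 175, 177 and 195 CPM, then 230, 190 and 208 CPM (-0.64 ± 0.09). In the mean contrast 7 glycolytic genes fell and 4 rose, so that list had both directions. It had 9 lower members without untreated 1 and 7 without sorafenib 1.

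Splicing regulators had 14 lower members and 0 higher of 41, with 14 called lower and 2 higher. HNRNPM, an RNA-binding protein of the spliceosome, was at 248, 310 and 314 CPM in untreated cells, 155, 131 and 201 CPM in oxaliplatin and 201, 176 and 190 CPM in sorafenib (-0.73 ± 0.14). HNRNPA1, HNRNPA2B1, HNRNPD, HNRNPL and SRSF3 were among the others. HNRNPA3 was a member through even levels of 213 to 281 CPM in 5 drug libraries and 78.4 CPM in sorafenib 2, against 341 to 370 CPM in untreated. With the 1.2-fold gap 7 of the 41 were still lower members, and after correction for GC content and length there were 21.

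Integrins and laminins, the receptors and ligands by which cells hold to the basement membrane, had 9 higher members and 0 lower of 23. In the mean contrast 12 rose and 0 fell, and the median was 0.53, with 0.53 in oxaliplatin and 0.49 in sorafenib. ITGB8, the beta subunit of an integrin that activates latent TGF-beta, was at 5.87, 5.47 and 5.15 CPM in untreated cells, 30.8, 32.4 and 21.9 CPM in oxaliplatin and 15.4, 23.7 and 17 CPM in sorafenib (2.07 ± 0.19). ITGB3, the beta subunit of a vitronectin receptor, was at 7.80, 6.80 and 6.31 CPM, then 18.2, 14.9 and 18.7 CPM, then 32.5, 46.2 and 40.9 CPM (1.91 ± 0.16). ITGB4, the laminin receptor subunit of hemidesmosomes, was at 17, 13.2 and 11.7 CPM, then 31.0, 27.3 and 30.2 CPM, then 45.4, 42.7 and 41.9 CPM (1.36 ± 0.13). ITGA6, ITGB1, LAMA5, LAMB1, LAMB2 and LAMC1 were the other higher members. After correction for GC content and length 7 were higher members and 10 were called higher, with 1 called lower and a median of 0.31.

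ABC transporters of drugs and lipids had 5 higher members and 0 lower of 13, and 8 rose and 0 fell in the mean contrast. ABCC1, the efflux pump MRP1, was at 21.9, 13.3 and 18 CPM in untreated cells, 41.2, 29.4 and 41.7 CPM in oxaliplatin and 25.8, 41.2 and 36.5 CPM in sorafenib (1.02 ± 0.21). ABCC3, a pump of organic anions and bile salts, was at 327, 234 and 232 CPM, then 411, 426 and 395 CPM, then 473, 506 and 474 CPM (0.76 ± 0.12). ABCA2, ABCA3 and ABCC4 were the others, and without untreated 1 there were 8. The genes of this list are long, with a median exonic length of 7837 bases. Its median log2 fold change was 0.53, and 0.29 after correction for GC content and length. With that correction 5 were higher members, and 6 were called higher and 0 lower. ABCB1, the gene of P-glycoprotein, was no member, at 78.0 to 145 CPM in untreated and 88.5 to 122 CPM in the drugs.

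Of copper and platinum transport genes 1 of 13 was a higher and 1 a lower member, near the background. ATP7A, a copper pump that is known to export platinum drugs, was the higher one, at 7.51, 6.91 and 6.05 CPM in untreated cells, 18.3, 19.3 and 16.2 CPM in oxaliplatin and 9.29, 12.1 and 10.8 CPM in sorafenib (1.03 ± 0.14, and 0.62 after correction for GC content and length). ATOX1, the copper chaperone that delivers to it, was the lower one (-0.63 ± 0.13). The lower members were 5 without untreated 1. In the mean contrast 1 of the 13 was called higher and 4 lower, beside 12% and 11.9% of all genes. The list median was -0.36, with -0.49 in oxaliplatin and -0.18 in sorafenib. ATP7A overlaps other genes on its strand in the annotation.

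Histone lysine methyltransferases and demethylases had 12 higher members and 1 lower of 43, with 15 called higher and 1 lower and a median of 0.30. KMT2D, which methylates histone H3 at enhancers, was at 69.9, 44.1 and 58.6 CPM in untreated cells, 162, 129 and 169 CPM in oxaliplatin and 76.1, 169 and 113 CPM in sorafenib (1.24 ± 0.25). SETD5 (1.5 ± 0.30) and KDM7A (1.15 ± 0.16) were further members, with KMT2A, KMT2C, KDM5B and ASH1L. These genes are long, with a median exonic length of 9430 bases. After correction for GC content and length the list had 6 higher and 4 lower members, 9 called higher and 3 lower, and a median of 0.06. Without sorafenib 1 it had 20 higher members.

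Length and GC content moved with the direction of membership. The median exonic length was 6745 bases in the higher members, 3337 in the lower ones and 4302 in all genes compared, and the median GC content of the longest transcript was 44.2%, 51.4% and 47.9%. The genes were cut into 5 classes of equal number by each property. In the class with the longest exons 18.6% were higher members and 3.81% lower, and in the shortest class 4.99% and 10.3%. In the class of lowest GC content 14.2% were higher members and 5.09% lower, and in the highest class 4.44% and 10.4%. With each library corrected for both properties, the shares over the classes were 5.28% to 8.12% higher and 8.81% to 13.1% lower. There were then 2840 members, 1048 higher and 1792 lower, of which 2047 were members without the correction. What in the cells or libraries set this relation was not tested. With the correction, the 8 lists led by lower members above (replication, mitosis, respiratory chain, both kinds of ribosomal protein, proteasome, glycolysis and splicing) had as many lower members or more, while the share over all genes went from 8.49% to 11.1%, and the histone methylation list had fewer higher members.

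**Figure D4:**
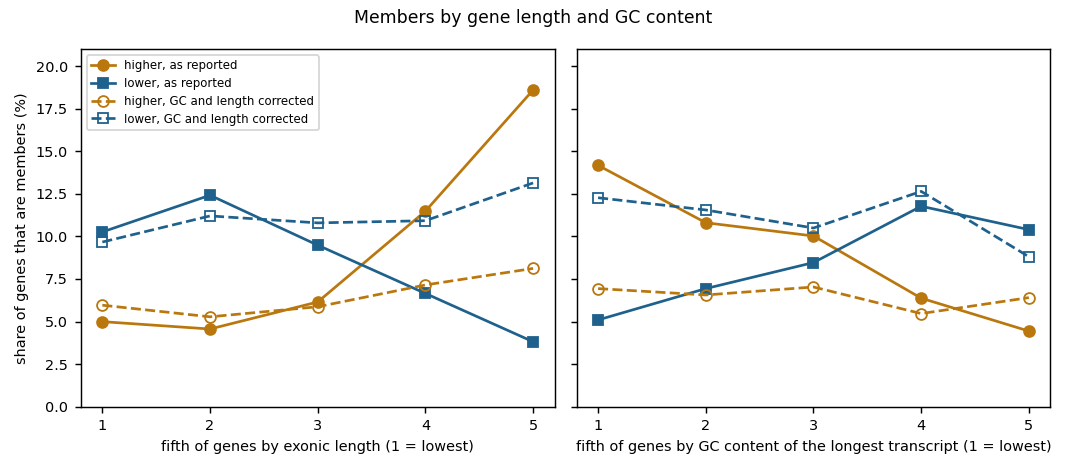
Lines give the share of genes that were higher or lower members in 5 classes of genes by exonic length (left) and by GC content (right), as reported (filled) and after correction for both (open). Higher members reach 18.6% in the longest class and lower members 3.81%, and the open lines are flatter.

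Members also differed by type and place. Protein-coding genes made up 78.9% of higher and 85.5% of lower members, beside 77.0% of all genes compared, and long non-coding RNAs 11.5%, 7.07% and 12.7%. On chromosome 13, 15.1% of the genes were higher members and 5.59% lower, and on chromosome 4, 14.5% and 6.13%. Chromosomes 22 and 19 were the reverse, with 4.90% higher and 12.9% lower on 22 and 4.17% and 10.3% on 19. These shares are without the correction, and whether they go with the length and GC content of the genes on each chromosome was not tested. Zinc finger genes of chromosome 19 had 20 higher and 6 lower members of 198 (10.1% and 3.03%), 10 and 13 after the correction, and 44 and 8 without sorafenib 1. ZNF460, one of them, was at 1.29 to 1.33 CPM in untreated and 1.74 to 8.97 CPM in the drugs.

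The lists on stress of the ER held members in both directions, near the shares of all genes (9.15% higher and 8.49% lower). ATF4 itself, the transcription factor of the integrated stress response, fell: it was at 931, 1183 and 1071 CPM in untreated cells, 605, 627 and 726 CPM in oxaliplatin and 907, 759 and 751 CPM in sorafenib. Sorafenib 1 lay just below untreated 1. The log2 fold change was -0.55 ± 0.11 (adjusted p = 0.0107, edgeR), and the adjusted p was 0.0605 without untreated 2. Of 34 genes of the ATF4 branch, ATF4 included, 2 were higher and 2 lower members (5.88% each). In the mean contrast 2 were called higher and 10 lower, beside 12% and 11.9% of all genes. Untreated 1 decided these counts: without it 21 of the 34 were lower members and 18 were called lower, with 0 called higher. After correction for GC content and length 15 were called lower and 0 higher. Over all 16159 genes the correction took the number called lower from 1927 to 2664 and the number called higher from 1941 to 1308. DDIT3, the gene of CHOP, was at 57.3 to 78.7 CPM in untreated and 30.4 to 65.5 CPM in the drugs (-0.35 ± 0.19, adjusted p = 0.209). TRIB3, a pseudokinase induced by ATF4, was at 254, 457 and 437 CPM in untreated, 190 to 203 CPM in oxaliplatin and 385 to 428 CPM in sorafenib, so only oxaliplatin lay below (-0.43 ± 0.16, adjusted p = 0.0780, and 0.00283 without untreated 1).

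Of 40 ER chaperones and targets of ATF6 and XBP1, 3 were higher and 5 lower members (7.5% and 12.5%). Without untreated 1 there were 6 higher and 11 lower members, where 17.3% and 17% of all genes were. In the mean contrast 2 rose and 9 fell, and after the correction 2 and 16 did, where 1308 and 2664 of all genes did. HSPA5, the chaperone BiP, was at 921 to 1341 CPM in untreated, 726 to 773 CPM in oxaliplatin and 1122 to 1205 CPM in sorafenib (-0.37 ± 0.12, adjusted p = 0.0511). Its adjusted p was under the threshold in 5 of 18 alternatives, and 0.00481 without untreated 1. SEL1L, the adaptor of ER-associated degradation, was a higher member at 51.2 to 60.3 CPM in untreated and 84.3 to 115 CPM in the drugs (0.81 ± 0.13, and 0.45 after the correction). SEC61G, of the ER translocon, was a lower member (-0.72 ± 0.15), at 74.7 to 109 CPM in untreated and 44.3 to 73.7 CPM in the drugs.

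Enzymes on the list of inositol phosphate metabolism had 3 higher members and 0 lower of 30, close to the 9.15% of all genes. They were SYNJ2 (0.53 ± 0.12), a phosphatase of phosphoinositides, ITPKC (0.41 ± 0.12), a kinase of inositol trisphosphate, and IMPAD1 (0.33 ± 0.09). After correction for GC content and length SYNJ2 was at 0.17. Without untreated 1 there were 7 higher and 3 lower members, without sorafenib 1 there were 6 and 1, and after the correction 1 and 2. Of all genes 17.3%, 15.4% and 6.49% were higher in these settings. IPMK, the inositol polyphosphate multikinase, was at 22.9, 19.2 and 23.0 CPM in untreated cells, 38.3, 37.0 and 28.3 CPM in oxaliplatin and 22.5, 30.0 and 28.9 CPM in sorafenib. Sorafenib 1 lay inside the untreated range, so it was no member. The mean contrast was 0.49 ± 0.14 (adjusted p = 0.0341), and the call was lost without untreated 2 or 3, oxaliplatin 1 or 2, or sorafenib 2 or 3 (adjusted p 0.0660 to 0.149). After correction for GC content and length it was 0.22 with an adjusted p of 0.0923. MINPP1, which removes phosphates from inositol hexaphosphate, was at 18 to 20.01 CPM in untreated and 18.1 to 26.2 CPM in the drugs (0.27 ± 0.11, adjusted p = 0.0949).

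Other lists held members in both directions. Of 43 lysosomal genes 5 were higher and 3 lower members (11.6% and 6.98%, near the 9.15% and 8.49% of all genes). NPC1, the exporter of lysosomal cholesterol, was at 103, 95.3 and 98.8 CPM in untreated cells, 152, 152 and 151 CPM in oxaliplatin and 154, 190 and 201 CPM in sorafenib (0.75 ± 0.10, and 0.47 after correction for GC content and length), and IDUA, a glycosidase, had 0.88 ± 0.18. Of 28 genes of oxidative defence, glutathione and iron handling, 1 was higher and 5 were lower, among them TXN, the gene of thioredoxin (-0.70 ± 0.11), GSS, glutathione synthetase (-0.57 ± 0.11), and KEAP1, the inhibitor of NRF2 (-0.69 ± 0.22). In the mean contrast 1 of the 28 was called higher and 10 lower, beside 12% and 11.9% of all genes. Of the 43 lysosomal genes 9 were called higher and 2 lower. Of 31 genes of cholesterol and fatty acid synthesis 2 were higher and 2 lower. ACACA, which makes malonyl-CoA, was a higher one, at 10.6 to 22.6 CPM in untreated and 24.4 to 44.5 CPM in the drugs.

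Of 21 targets of YAP and TEAD 4 were higher and 2 lower. PTPN14, a phosphatase that restrains YAP, was at 240, 247 and 261 CPM in untreated, 604, 564 and 571 CPM in oxaliplatin and 327, 504 and 438 CPM in sorafenib (0.99 ± 0.13, and 0.48 after the correction), opposite to ANKRD1 above. Of 25 host genes of small nucleolar RNAs 1 was higher and 3 were lower, and of 20 aminoacyl-tRNA synthetases 0 were higher and 1 was lower. In the mean contrast 1 host gene was called higher and 7 lower, with a list median of -0.40. Of the synthetases 0 were called higher and 2 lower. Without untreated 1, where 17.3% of all genes were higher and 17% lower members, there were 9 lower host genes, 10 lower synthetases, 8 lower YAP targets, 5 lower genes of cholesterol and fatty acid synthesis, and 11 higher and 6 lower lysosomal genes. Without sorafenib 1, where 15.4% and 14.6% of all genes were, there were 11 lower host genes, 9 lower genes of oxidative defence and 7 lower lysosomal genes.

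The drugs were then compared with each other, a contrast that the rule did not use and that weighs no untreated level. Its filter, scaling and spread came from all 9 libraries. With the 6 drug libraries alone 180 members were called, against 212 here. Of all genes 1659 were called between oxaliplatin and sorafenib (10.3%). Of the higher members 103 of 1478 were called (6.97%), 86 higher and 17 lower in oxaliplatin, beside 5.20% and 5.07% of all genes. Of the lower members 109 of 1372 were called (7.94%), 8 higher and 101 lower in oxaliplatin. In most of these oxaliplatin lay farther from untreated, but the rule, which asks for both drugs on one side of untreated, limits which differences can occur. Over all genes, called or not, oxaliplatin had the larger shift in 67.1%, beside 69.0% of the higher and 78.0% of the lower members. The number of members called between the drugs was 212, and it was 51 without oxaliplatin 1, 81 without oxaliplatin 2, 85, 112 and 81 without sorafenib 1, 2 and 3, 329 by DESeq2 and 337 after correction for GC content and length. For the remaining members a difference was not called, which does not show that the drugs act alike.

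FN1, the gene of fibronectin, which integrins bind, differed most among members with at least 5 CPM. It was at 13.0, 8.96 and 9.02 CPM in untreated cells, 211, 212 and 205 CPM in oxaliplatin and 14.8, 17.8 and 17.7 CPM in sorafenib. All 3 groups were separate, with oxaliplatin far above. The difference between the drugs was 3.64 ± 0.16 on the log2 scale (adjusted p = 1.12e-05, edgeR). FN1 counts as higher in both drugs by the rule, but its level was 20.3-fold above untreated in oxaliplatin and 1.63-fold in sorafenib.

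C3, a complement component, TRANK1, PTH2R, a receptor of the parathyroid hormone family, and TLN2, a talin that links integrins to actin, had the same order. C3 was at 4.63, 2.65 and 4.08 CPM in untreated, 15.0, 15.2 and 14.4 CPM in oxaliplatin and 6.57, 5.28 and 5.52 CPM in sorafenib, a difference of 1.36 ± 0.20 between the drugs (adjusted p = 0.00420). TRANK1 differed by 1.65 ± 0.19 (adjusted p = 0.000911), PTH2R by 1.37 ± 0.19 (adjusted p = 0.00289) and TLN2 by 1.34 ± 0.21 (adjusted p = 0.00466). TRANK1 was at 4.29 to 4.71 CPM in sorafenib and at 2.93 to 4.28 CPM in untreated, so it only just met the rule. ACTA2, smooth muscle actin, differed by 1.21 ± 0.25 (adjusted p = 0.0173) and FOS, an early response transcription factor of AP-1, by 1.24 ± 0.23 (adjusted p = 0.0102) at no more than 2.98 CPM.

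NT5E, the surface enzyme CD73 that makes adenosine, and ITGB3 were higher in sorafenib. NT5E was at 21.7, 23.0 and 27.4 CPM in untreated cells, 32.7, 38.1 and 37.3 CPM in oxaliplatin and 78.8, 79.5 and 81.9 CPM in sorafenib, with 3 separate groups. The difference of oxaliplatin minus sorafenib was -1.15 ± 0.12 for NT5E (adjusted p = 0.000592) and -1.20 ± 0.16 for ITGB3 (adjusted p = 0.00246). HLF, a circadian output transcription factor, was at 7.74, 1.71 and 4.99 CPM, then 12.3, 12.9 and 9.54 CPM, then 45.5, 39.6 and 35.5 CPM, and differed by -1.79 ± 0.41 (adjusted p = 0.0283), a call that was lost when any drug library was left out (adjusted p up to 0.0964).

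Among lower members LGALS2, a galectin, was at 38.4, 34.1 and 27.3 CPM in untreated cells, 7.52, 9.71 and 12.2 CPM in oxaliplatin and 27.2, 20.3 and 16.5 CPM in sorafenib. Its difference was -1.13 ± 0.23 (adjusted p = 0.0166), lost without oxaliplatin 1 or 2 or sorafenib 1. TMEM199, an assembly factor of the vacuolar proton pump, differed by -1.10 ± 0.18 (adjusted p = 0.00641) and overlaps another transcript. SNHG30, a host gene of small nucleolar RNAs, was at 16.3 to 17.7 CPM in untreated, 5.13 to 6.93 CPM in oxaliplatin and 10.8 to 16 CPM in sorafenib, a difference of -1.11 ± 0.19 (adjusted p = 0.00682). PHACTR2 differed by 0.32 ± 0.18 with an adjusted p of 0.266, so it was not called between the drugs.

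**Figure D5:**
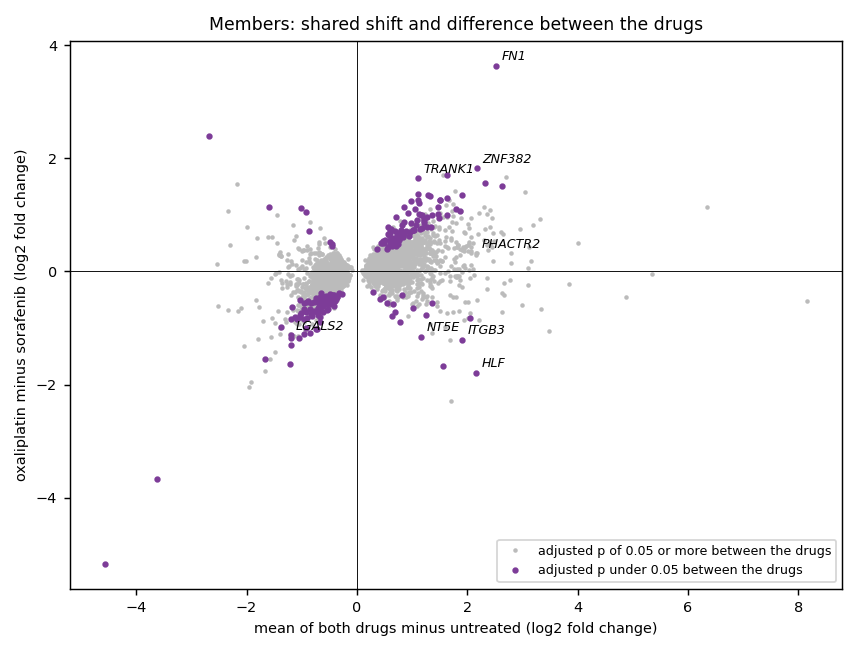
Each point is 1 of the 2850 members, placed by the mean log2 fold change of both drugs against untreated (horizontal) and by the log2 fold change of oxaliplatin against sorafenib (vertical). Purple points are the 212 called between the drugs. FN1 stands alone at 3.64, most points lie near 0, and purple points lie mainly above 0 at the right and below 0 at the left.

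In 3 further lists many genes differed between the drugs, where 5.20% of all genes were higher and 5.07% lower in oxaliplatin. Of all genes 9.15% were higher and 8.49% lower members. Of 33 interferon-stimulated genes 1 was a higher and 3 were lower members, but 11 were called higher in the mean contrast and 16 were higher in oxaliplatin than in sorafenib, with 0 lower. There were 8 higher members without sorafenib 1 and 6 without untreated 1, where 15.4% and 17.3% of all genes were. ISG15, a ubiquitin-like modifier, was a lower member at 9.68 to 10.3 CPM in untreated, 7.10 to 9.30 CPM in oxaliplatin and 3.38 to 6.90 CPM in sorafenib. Of 28 extracellular matrix and mesenchymal genes 4 were higher members and 1 was lower, while 12 were higher and 2 lower in oxaliplatin than in sorafenib. Without untreated 1 there were 7 lower members. Of 29 genes of RAS-ERK feedback and output 2 were higher members, SPRED3 and FOS, while 6 were higher and 13 lower in oxaliplatin than in sorafenib, and 7 were lower members without untreated 1. SPRED3, which restrains RAS, was at 1.47, 2.38 and 2.86 CPM in untreated, 6.88, 6.51 and 7.60 CPM in oxaliplatin and 10.8, 14.0 and 12.3 CPM in sorafenib. ETV4, an ETS factor downstream of ERK, was at 4.52, 3.81 and 3.71 CPM in untreated, 0.688, 1.25 and 1.09 CPM in oxaliplatin and 14.2, 13.2 and 15.2 CPM in sorafenib. Its mean contrast was -0.09 ± 0.18, and the drugs differed by -3.82 ± 0.23 (adjusted p = 3.16e-05, edgeR). Some lists led by lower members also held genes called between the drugs. Of 47 replication genes 0 were higher and 7 lower in oxaliplatin than in sorafenib, and of 74 respiratory chain genes 0 and 10. Of 76 mitochondrial ribosomal proteins 1 was higher and 12 lower, of 82 cytosolic ones 0 and 5, and of 41 splicing regulators 2 and 2.

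At the edge of the rule the order of 2 libraries decided. WDFY3, just inside on the higher side, was at 54.3 CPM in both untreated 1 and sorafenib 1, with sorafenib 1 above by less than the rounding. ZNF24, just outside, was at 99.4 CPM in the same 2 libraries. SUGT1, just inside on the lower side, was at 70.8 CPM in untreated 1 and 70.7 CPM in sorafenib 1, and PGBD1, just outside, was at 7.33 CPM in untreated 1 and oxaliplatin 1. Without the filter on low counts 3130 of 31624 genes with a count met the rule.

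Of the genes given with values above, GMPPB, ITPR1, ERC1, GINS2, CDKN2A, ATP5ME, MRPL11, HNRNPA3, ITGB8, ATOX1, KMT2D, ZNF460, DDIT3, ITPKC, NPC1, IDUA, PTPN14, TLN2, ACTA2, SNHG30, ETV4 and ZNF382 overlap a gene on the other strand, and the reads of such a pair may not be told apart. GMPPB, PHACTR2, GLB1, TIMP2, ITGB3, PTPN14, ATP7A and PGBD1 overlap another gene on their own strand. Their levels are those of the deposited counts and are uncertain to that extent.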

How the data were processed

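The deposited files hold raw counts per gene for 60683 genes in 9 libraries, counted by the authors with featureCounts on GRCh38, per the submitters' processing notes, which also name DESeq2. The aligner, the annotation release and the strand setting are not given in the sources used here. Counts were analysed in R 4.3.3 with edgeR 4.0.16 (filterByExpr, TMM factors of 0.944 to 1.05 and a robust quasi-likelihood fit that gave each group its own coefficient). The biological coefficient of variation was 0.224. P-values were 2-sided, with Benjamini-Hochberg adjustment across 16159 genes and a threshold of 0.05. The standard error was taken as the log2 fold change divided by the root of F. GENCODE 29 gave exons, GC content and overlaps for 58496 gene identifiers, of which 58437 had the same chromosome as in the files and 45665 the same start and end. Libraries of a group differed by more than counting noise (chi-square per degree of freedom 18.7 to 40.4) and were counted separately, which does not show separate cultures.

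The members and gene lists were chosen with earlier results of these data known. Named genes were the 12 leading members of each direction by the smaller of both drugs' shifts (mean of at least 5 CPM), up to 3 members of each list (at least 1 CPM), a fixed set of genes, the 5 largest differences between the drugs in each direction, the genes at the edge of the rule and 3 leading long non-coding RNAs in each direction. Only some of these are described, and further members are given by name. MCM6, PCNA and ESPL1 were chosen for their promoters. The fits were tested on simulated data. Alternatives were DESeq2 1.42.0, RLE factors, library size only, other filters, a replicate block, a loess correction (span 0.5) for GC content and length, 1 coefficient for all drug libraries, a 2-fold threshold, a 1.2-fold gap, the drug libraries alone, and each library left out. Some named genes are not reported here.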

Additional observations from a re-analysis of the deposited data

Results flagged for a closer look

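The following members were picked out because their effects against untreated differed between the drugs by the test of the difference itself (oxaliplatin minus sorafenib, log2 scale, edgeR, adjusted over all genes compared). Only genes chosen for description or among the 5 largest differences in each direction were considered. The genes given here are therefore not all of the 212 members called between the drugs. Among higher members farther from untreated in oxaliplatin, the difference was 3.64 for FN1, 1.82 for ZNF382, 1.65 for TRANK1, 1.37 for PTH2R, 1.36 for C3, 1.34 for TLN2, 1.24 for FOS, 1.21 for ACTA2, 0.85 for WDFY3 and 0.74 for ATP7A. ZNF382, a zinc finger gene, was at 0.424 to 0.645 CPM in untreated, 3.96 to 4.62 CPM in oxaliplatin and 0.706 to 1.76 CPM in sorafenib. Among higher members farther from untreated in sorafenib, it was -1.79 for HLF, -1.20 for ITGB3, -1.15 for NT5E, -0.82 for SPRED3 and -0.55 for ITGB4. Among lower members farther from untreated in oxaliplatin, it was -1.13 for LGALS2, -1.11 for SNHG30, -1.10 for TMEM199, -0.64 for GINS2, -0.53 for TXN and -0.44 for LDHB.

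The differences of FN1, ZNF382, TRANK1, PTH2R, C3, TLN2, FOS, ITGB3, NT5E, SNHG30 and TMEM199 were called under all 18 alternatives. The other 10 were each lost under 4 to 10 of them, always including the omission of at least 1 sorafenib library and of oxaliplatin 1.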

How the results depend on the processing

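The mean contrast called 3868 genes. It called 2143 with a replicate block, 2529 with the block and the correction for GC content and length, 1456 with 1 coefficient for all drug libraries and 729 at 2-fold or more. Leaving out 1 library gave 726 to 4626. Between the drugs 1659 genes were called, 809 with the replicate block, 2417 by DESeq2, 2380 with the GC and length correction and 572 (without oxaliplatin 1) to 1949 with 1 library left out. Of members called between the drugs there were 212, and 329 by DESeq2, 80 with the replicate block, 337 with the GC and length correction and 51 to 262 with 1 library left out. The number of members was 2850, 561 with the 1.2-fold gap, and 3004 to 5713 with 1 library left out. The other settings tried kept these counts within 1.5 times. The causes were not tested.

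Library numbers were shared across groups, but same-numbered libraries deviated together little (correlations of -0.111 to 0.036 across genes), so the block pairs nothing known. Scaling by library size moved the median of all genes by 0.08 and the GC and length correction by -0.07 on the log2 scale. Genes near the floor of 3 counts carry large errors, and 3 libraries a group limit the precision of every contrast.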
